A study of Mus musculus with 7 samples.

Results

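The genes described here are 10 genes of the p53 pathway, namely Trp53, which encodes p53 itself, and 9 of its known transcriptional targets, Cdkn1a, Mdm2, Ccng1, Trp53inp1, Bbc3, Bax, Phlda3, Sesn2 and Eda2r. They were taken by symbol from a table of 25461 genes measured by RNA-seq in 7 mouse embryos, and all 10 were found there. The embryos were at embryonic day 11.5 (E11.5) and of the strain B6C3F1, and each gave its own library. The KO group comprised 3 embryos with a SLMAP3 knockout (KOAC8-6, KOAC10-5 and KOAC10-8) and the WT group 4 wild-type embryos (KOAC8-1, KOAC10-7, KOAC9-1 and KOAC10-2). The knockout allele lacks exon 3 of Slmap, which was flanked by LoxP sites and deleted with a CMV-driven cre. Heterozygotes without the cre were then bred together, so that the deletion is in the whole animal. The shorter isoforms SLMAP1 and SLMAP2 are not targeted by this allele. RNA came from the whole body after the tail had been taken for genotyping, so a level is an average over all tissues of the embryo, and fewer cells of a type cannot be told apart from less RNA per cell.

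p53 is a transcription factor that is held at a low level by Mdm2, a ubiquitin ligase which p53 itself induces. When DNA is damaged or ribosome production fails, p53 is released from Mdm2 and binds pairs of short half-sites near its target genes. Some targets halt the cell cycle, some promote apoptosis, and some act on metabolism and redox balance. In mouse embryos, excess p53 activity is known for causing cell death in the neural tube and neural crest.

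The values are FPKM, fragments counted per kilobase of transcript and scaled for library depth, so levels can be compared between genes. Relative depth, read from the steps between low FPKM values, ran from 0.81 to 1.22 of the average embryo. With the authors' mean normalized counts this gave an estimated 54500000 to 81900000 counts on genes per embryo. Slmap was lower in every KO embryo, at 19.6 FPKM in KOAC8-6, 16.0 in KOAC10-5 and 16.6 in KOAC10-8, against 22.8 to 31.2 FPKM in WT embryos (p = 0.0286 by two-sided exact permutation, the lower limit for groups of 3 and 4). Its log2 fold change was -0.59 (SE 0.13, adjusted p = 0.278 in limma). Because values are per gene, RNA of the isoforms that the allele spares is included.

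Several embryos stood apart from the others in ways that the genotype does not mark. The KO embryo KOAC10-5 and the WT embryos KOAC10-7 and KOAC10-2 had almost no liver RNA, with the alpha-fetoprotein gene Afp at 5.18, 1.30 and 2.49 FPKM, against 255 to 376 FPKM in the other 4. Xist, expressed from the inactive X chromosome of females, was at 0.330 FPKM in the KO embryo KOAC10-8 and at 0.0853 FPKM in the WT embryo KOAC9-1, and at 158 to 181 FPKM in the other 5. KOAC10-8 also had by far the highest levels of the genes of the integrated stress response. Values without KOAC10-8 are therefore given for each p53 gene and for the list counts that changed without it. The embryo labels carry the prefixes KOAC8, KOAC9 and KOAC10, whose meaning is not given in the sources used here.

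Matches to the half-site of p53 were looked for near the starts of these genes. Promoter windows of 300 bases, 250 before to 50 after the transcription start in RefSeq (GRCm38.p6), were found for 9 of the 10 genes, all but Trp53inp1. The 10-base p53 half-site consensus was searched on both strands. It occurred in the windows of 5 of the 9, namely Trp53, Cdkn1a, Mdm2, Ccng1 and Bax, against 9.55% of all genes with a window (8.36% of all 32851 windows). A stretch of each of the 5 windows is printed here so that single matches can be compared with the 2 in Cdkn1a. Exact matches are in capitals and all other bases in lower case, 5′ to 3′ on the strand of the gene.
Cdkn1a: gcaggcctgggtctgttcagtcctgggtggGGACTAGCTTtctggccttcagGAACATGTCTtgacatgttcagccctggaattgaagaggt
Mdm2: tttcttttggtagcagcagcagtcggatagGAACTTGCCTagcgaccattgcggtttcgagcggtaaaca
Ccng1: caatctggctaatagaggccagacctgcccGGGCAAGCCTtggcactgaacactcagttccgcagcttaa
Bax: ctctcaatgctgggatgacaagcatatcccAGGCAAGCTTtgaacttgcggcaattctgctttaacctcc
Trp53: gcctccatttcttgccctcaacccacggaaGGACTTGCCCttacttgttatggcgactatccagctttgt
The stretches lie at chr17:29090876-29090967 (plus strand), chr10:117710905-117710974 (minus strand), chr11:40755432-40755501 (minus strand), chr7:45467060-45467129 (minus strand) and chr11:69580254-69580323 (plus strand). None of them overlaps an exon of its gene in GENCODE M21. Cdkn1a was the only one of the 5 with 2 exact matches, 12 bases apart, the first of which begins 73 bases before the start. Near matches were not counted, such as the bases directly before the match in Ccng1 and directly after the second match in Cdkn1a. A window with a single exact match may therefore still hold a pair of half-sites. The shorter CATG, which lies inside the second half-site of Cdkn1a, occurred in 5 of the 9 genes and in 64.8% of all genes. These matches describe letters only, p53 binding was not measured, and elements outside the windows were not searched.

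Levels of the 10 genes spanned a wide range in the whole embryo. Bax was the most abundant at 90.8 to 116 FPKM over the 7 embryos, followed by Trp53 at 65.4 to 87.8, Mdm2 at 30.8 to 40.3 and Ccng1 at 14.8 to 18.4 FPKM. Each of these was above the next in all 7 embryos. Cdkn1a (mean 11.6 FPKM) and Trp53inp1 (mean 10.99 FPKM) could not be ordered, since Cdkn1a was higher in 4 of the 7. Sesn2 (mean 10.48 FPKM) exceeded Phlda3 (mean 9.65 FPKM) in 1 embryo only, KOAC10-8, and thus ranks above it through that embryo alone. Phlda3 was above Bbc3 (mean 6.63 FPKM) in 6 of the 7 embryos. Eda2r had the lowest level, with a mean of 0.486 FPKM, but still drew an estimated 71 to 197 counts per embryo.

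KO and WT embryos were compared to ask whether the p53 program differs when SLMAP3 is lost. None of the p53 genes passed the test. Of the 9 with a mean of at least 1 FPKM, 0 had an adjusted p under 0.05 in limma, as did 6 of all 16095 genes tested (0.0373%), and 0 had an unadjusted p under 0.05, against 11.5% of all genes. That last count was 2 without KOAC10-5 (Mdm2 and Sesn2, beside 16.4% of all genes in the same fit), 2 without KOAC10-2 (Bbc3 and Cdkn1a, beside 9.96%), 1 without KOAC8-6 (Bbc3, beside 8.75%) and 1 with embryo quality weights (Mdm2, beside 13.6%). The fold change was positive for 6 and negative for 3, with a median of 0.10 on the log2 scale beside 0.01 over all genes tested. Without KOAC10-8 the count was 4 positive and 5 negative, and the median was -0.03. No gene of the 9 had KO values entirely above WT values (5.61% of all genes tested) or entirely below them (5.98%). Eda2r, which was too low to be tested, was the exception among the 10.

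**Figure D1:**
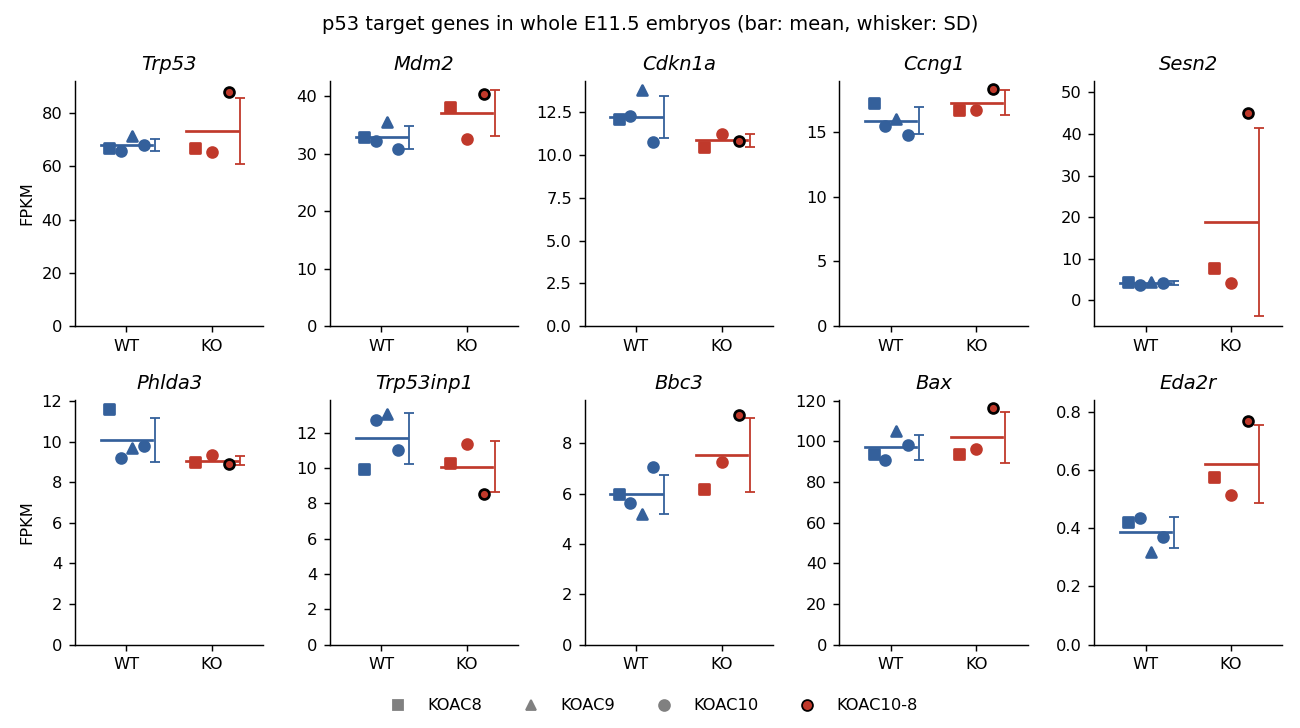
FPKM of the 10 p53 genes in each embryo (vertical axis), with WT in blue and KO in red, the marker shape giving the label prefix, the bar the mean and the whisker the SD. KOAC10-8, outlined in black, is the highest embryo in 7 of the 10 panels, and Eda2r is the only panel in which the KO and WT points do not overlap.

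Trp53 lies on chromosome 11 (69580359 to 69591873, GRCm38). It was at 67.1 FPKM in KOAC8-6, 65.4 in KOAC10-5 and 87.8 in KOAC10-8, and at 67.0, 65.6, 71.2 and 68.2 FPKM in WT embryos. KOAC10-8 was high, whereas the other KO embryos lay within or just under the narrow WT range. The log2 fold change was 0.10 (SE 0.10, adjusted p = 0.737 in limma), and -0.04 (SE 0.05) without KOAC10-8. The level of the p53 protein, which is controlled mainly by degradation, was not measured here.

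Mdm2 (chromosome 10, 117688875 to 117710758), the ligase that holds p53 low, was at 38.1, 32.6 and 40.3 FPKM in KOAC8-6, KOAC10-5 and KOAC10-8, and at 32.9, 32.2, 35.5 and 30.8 FPKM in WT embryos. The 2 highest values were from KO embryos, but KOAC10-5 fell among the WT embryos. This gave a log2 fold change of 0.16 (SE 0.08, adjusted p = 0.500 in limma), or 0.10 (SE 0.09) without KOAC10-8. Without KOAC10-5 it was 0.25. Ccng1 (chromosome 11, 40748552 to 40755311) encodes cyclin G1, which with a phosphatase acts on Mdm2. Its values were 16.8, 16.8 and 18.4 FPKM in KO and 17.3, 15.5, 16.1 and 14.8 FPKM in WT embryos. One WT embryo, KOAC8-1, exceeded 2 of the 3 KO embryos, and the log2 fold change was 0.12 (SE 0.07, adjusted p = 0.545 in limma), or 0.07 (SE 0.07) without KOAC10-8.

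Cdkn1a (chromosome 17, 29090976 to 29100727) encodes p21, the kinase inhibitor through which p53 halts the cell cycle, and its fold change was negative. Its values were 10.48, 11.25 and 10.85 FPKM in KO and 12.10, 12.26, 13.80 and 10.78 FPKM in WT embryos. The KO values lay close together at the lower end of the WT range, with KOAC10-2 the WT embryo among them. The log2 fold change was -0.15 (SE 0.08, adjusted p = 0.516 in limma), and it was as large without KOAC10-8 (-0.15, SE 0.10). Of the exonic bases of Cdkn1a, 7.68% overlap an unverified transcript on the other strand, AC167363.2, which the library kit does not tell apart by strand. Phlda3 (chromosome 1, 135766119 to 135769136), a repressor of Akt signaling, was at 8.98, 9.33 and 8.90 FPKM in KO and 11.6, 9.20, 9.72 and 9.80 FPKM in WT embryos. Again the KO values were tightly grouped and low, overlapping the WT embryo KOAC10-7 only. Its log2 fold change was -0.13 (SE 0.08, adjusted p = 0.556 in limma), and -0.12 (SE 0.10) without KOAC10-8. Without the WT embryo KOAC8-1 it was -0.07.

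Among the genes that act in apoptosis, Bbc3 (chromosome 7, 16308393 to 16318205), which encodes the BH3-only protein PUMA, was at 6.19, 7.27 and 9.11 FPKM in KO and 6.00, 5.64, 5.18 and 7.04 FPKM in WT embryos. Both KO embryos of the KOAC10 labels were above all WT embryos, while KOAC8-6 was below the WT embryo KOAC10-2. A log2 fold change of 0.28 was obtained (SE 0.14, adjusted p = 0.481 in limma), or 0.15 (SE 0.13) without KOAC10-8. Bax (chromosome 7, 45461697 to 45466898), the pore-forming effector of mitochondrial apoptosis, was at 93.6, 96.1 and 116 FPKM in KO and 93.8, 90.8, 105 and 98.3 FPKM in WT embryos. Only KOAC10-8 lay outside the WT range. The log2 fold change of 0.07 (SE 0.09, adjusted p = 0.794 in limma) became -0.03 (SE 0.07) without that embryo. Bax shares 12.2% of its exonic bases with Gm45808, an overlapping gene on the same strand, so reads there could have been divided between the genes.

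Trp53inp1 (chromosome 4, 11156431 to 11174379), a stress-induced nuclear protein that promotes p53 activity, was at 10.3, 11.4 and 8.52 FPKM in KO and 9.97, 12.7, 13.0 and 11.0 FPKM in WT embryos. KOAC10-8, the highest embryo for most of the genes, was the lowest here. The log2 fold change was -0.20 (SE 0.12, adjusted p = 0.558 in limma), and -0.09 (SE 0.12) without it.

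Sesn2 (chromosome 4, 132492032 to 132510501) encodes sestrin 2, a leucine sensor that restrains mTORC1 and is known to be induced by ATF4 as well as by p53. It was at 7.70 FPKM in KOAC8-6, 4.07 in KOAC10-5 and 44.9 in KOAC10-8, and at 4.52, 3.62, 4.37 and 4.14 FPKM in WT embryos. KOAC10-8 was 10.6 times the median of the other 6 embryos, KOAC8-6 was the second highest, and KOAC10-5 lay within the WT range. The KO average of 18.9 ± 22.6 FPKM (SD, n = 3) thus describes none of them, and the log2 fold change of 1.30 (SE 0.67, adjusted p = 0.504 in limma) fell to 0.37 (SE 0.22, adjusted p = 0.724 in limma, with 0.216 to 0.851 over all alternatives) without KOAC10-8. At an estimated 656 to 10789 counts per embryo, the difference is far beyond counting error but rests on 1 embryo.

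Eda2r (chromosome X, 97333840 to 97377216), a receptor of the tumor necrosis factor family that binds ectodysplasin A2, was at 0.577, 0.513 and 0.769 FPKM in KO and 0.420, 0.433, 0.317 and 0.370 FPKM in WT embryos. Every KO embryo was above every WT embryo. The KO group averaged 0.620 ± 0.133 FPKM (SD, n = 3), which is 161% of the 0.385 ± 0.0527 FPKM of the WT group (SD, n = 4; p = 0.0286 by two-sided exact permutation, the lower limit for these group sizes). Such a separation with KO higher was seen for 4.68% of all 25461 genes. In a fit without the filter on low values, Eda2r had a log2 fold change of 0.22 (SE 0.07) with an unadjusted p = 0.0107 in limma, as did 4.49% of genes with an unadjusted p under 0.05 and KO higher, and an adjusted p = 0.398. With a pseudocount of 0.1, which shrinks low values less, the log2 fold change was 0.56. Without KOAC10-8 the log2 fold change was 0.16 (SE 0.05, unadjusted p = 0.0273 in limma). Eda2r is X-linked, and the embryos with almost no Xist were the highest, KOAC10-8, and the lowest, KOAC9-1. With Xist as a covariate its log2 fold change was 0.22 (adjusted p = 0.456 in limma), and the part of embryo sex was not tested otherwise.

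A single KO embryo held the top value for most of these genes. KOAC10-8 was the highest of the 7 embryos for 7 of the 10 genes (6 of the 9 tested), where it was highest for 26.4% of all genes tested, and the lowest for Phlda3 and Trp53inp1. The other KO embryos were the highest for 0 of the 10. Relative to the WT mean, the median of the 10 genes was 0.28 in KOAC10-8 on the log2(FPKM + 1) scale, 0.02 in KOAC8-6 and -0.02 in KOAC10-5. In the WT embryos it ran from -0.04 to 0.06. Within the KOAC10 labels, 2 KO against 2 WT embryos, the log2 difference was 1.65 for Sesn2, 0.32 for Bbc3, 0.22 for Eda2r, 0.20 for Mdm2, 0.20 for Ccng1, 0.18 for Trp53 and 0.16 for Bax. It was -0.05 for Cdkn1a, -0.05 for Phlda3 and -0.24 for Trp53inp1. Of these embryos, KOAC10-8 alone had high liver RNA and almost no Xist. KOAC10-5 was above both WT embryos of these labels for Bbc3, Eda2r, Mdm2 and Ccng1, but not for Sesn2, Trp53 or Bax. Within the KOAC8 labels, 1 embryo against 1, the difference was 0.66 for Sesn2, 0.21 for Mdm2, 0.15 for Eda2r, -0.19 for Cdkn1a and -0.34 for Phlda3, and between -0.04 and 0.04 for the other 5 genes. The KOAC9 label marks a WT embryo only and gives no value.

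**Figure D2:**
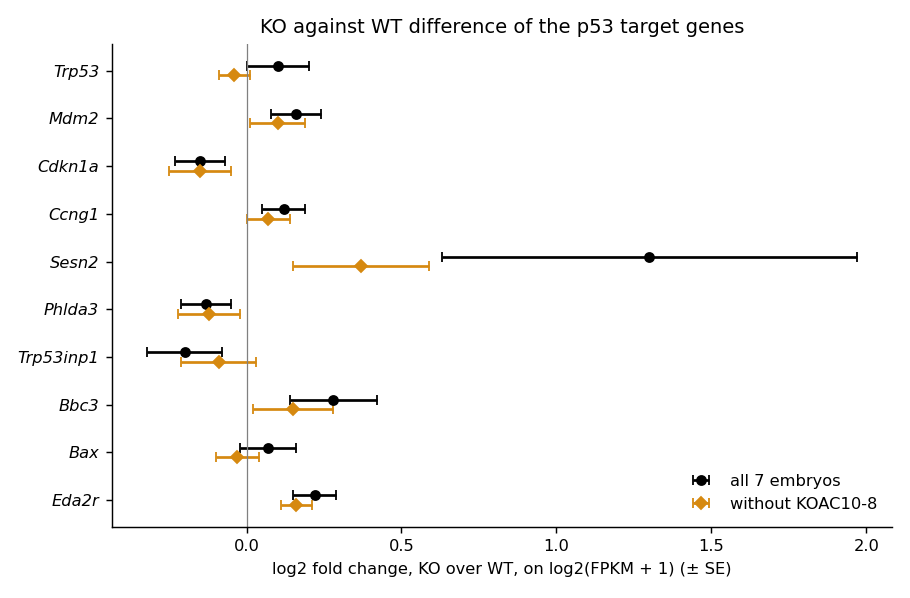
Log2 fold change of KO over WT embryos on the log2(FPKM + 1) scale (horizontal axis, whiskers ± SE) for each p53 gene, from all 7 embryos (black) and without KOAC10-8 (orange); Eda2r is from the fit without a filter. The fold change of Sesn2 drops from 1.30 to 0.37, those of Trp53 and Bax cross 0, and Cdkn1a stays at -0.15.

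The stress genes in which KOAC10-8 stood out are 12 genes of the integrated stress response, in which ATF4 induces amino acid synthesis and transport. All 12 were highest in this embryo (beside 26.4% of all genes tested), and their summed level was 959 FPKM there, against 344 to 423 FPKM in the other 6. Chac1, which degrades glutathione, was at 29.6 FPKM in KOAC10-8, 1.36 in KOAC8-6 and 0.633 in KOAC10-5, and at 0.360 to 0.561 FPKM in WT embryos. Asns, asparagine synthetase, was at 124 FPKM against 15.8 to 30.9 FPKM in the other 6, and Trib3, a pseudokinase, at 14.1 against 1.24 to 1.99 FPKM. Atf4 itself was at 162 FPKM against 78.1 to 97.0. The median log2 difference from the WT mean was 1.42 in KOAC10-8, 0.15 in KOAC8-6 and 0.04 in KOAC10-5. Sesn2 thus had its high value in the embryo in which the ATF4 genes were high. Its second highest value was in KOAC8-6, which was second highest for 3 of the 12 ATF4 genes, while the WT embryo KOAC9-1 was second highest for 6 and KOAC10-5 for 3.

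**Figure D3:**
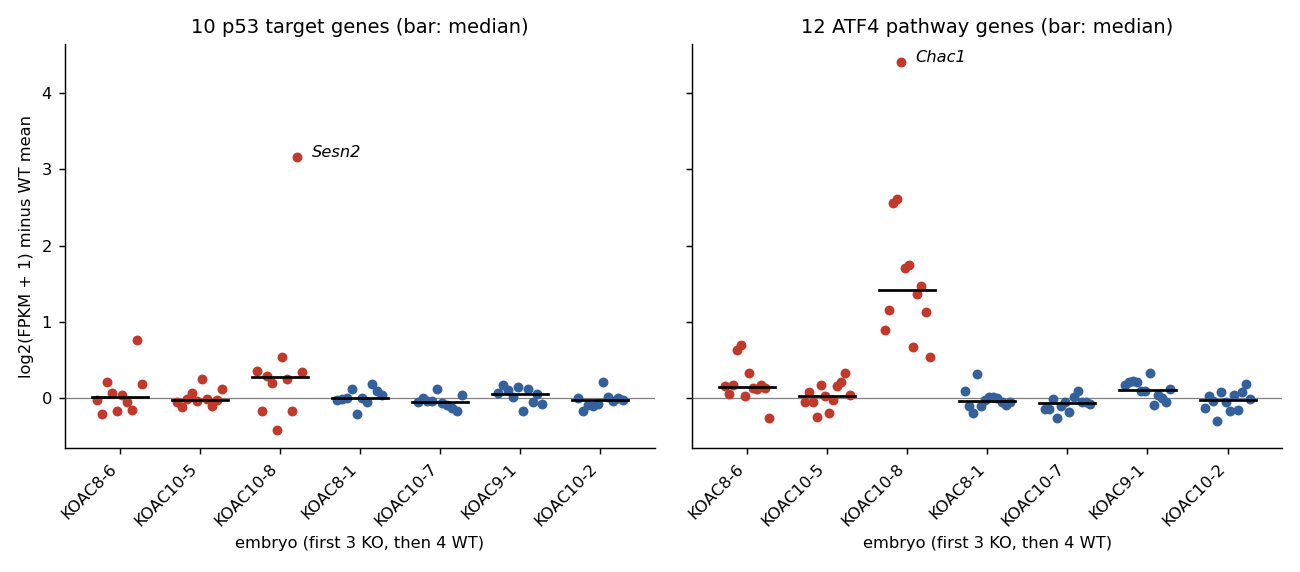
Each point is 1 gene in 1 embryo, as log2(FPKM + 1) minus the WT mean of that gene (vertical axis), for the p53 genes (left) and the ATF4 genes (right), with KO embryos in red and WT embryos in blue and the bar at the median. In KOAC10-8 the ATF4 genes have a median of 1.42 and Sesn2 is at 3.16, while the other p53 genes lie between -0.41 and 0.54.

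Of these 12 genes, 0 passed an adjusted p of 0.05 (beside 0.0373% of all genes tested) and 0 an unadjusted p of 0.05 in limma (beside 11.5%), with a median log2 fold change of 0.57. Every KO embryo was above every WT embryo for 3 of them, Chac1, Slc7a11 and Slc3a2 (beside 5.61% of all genes). Without KOAC10-8, Chac1 and Nupr1 averaged under 1 FPKM and were not tested. The median of the other 10 was then 0.08, and 1 gene, Slc3a2, had an unadjusted p under 0.05 with KO higher (beside 3.31% of all genes). The genes with the smallest p were Vldlr, a lipoprotein receptor (0.53, SE 0.23, adjusted p = 0.438 in limma, or 0.23 without KOAC10-8), Slc3a2, an amino acid transporter subunit (0.62, SE 0.30, or 0.19 without KOAC10-8), and Chac1 (1.75, SE 0.93), which was tested only through its level in KOAC10-8. The most abundant was Phgdh, an enzyme of serine synthesis, which was at 113, 100 and 163 FPKM in KO and 104, 103, 96.5 and 105 FPKM in WT embryos. KOAC10-8 was again far above the rest, and 47.8% of its 50-base stretches are shared with other annotated transcripts. The core of the C/EBP-ATF response element, TGATGNAA on either strand, was searched in the same windows after the values of Sesn2 had been seen. It occurred in 6 of the 12 ATF4 genes and in 0 of the 9 p53 genes with a window, Sesn2 included, against 4.51% of all genes with a window. The match in Chac1 is shown for comparison with the p53 half-sites above, in capitals, at chr2:119351019-119351086 (plus strand).
Chac1: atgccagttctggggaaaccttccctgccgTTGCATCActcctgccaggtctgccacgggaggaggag
No match in the window of Sesn2 says only that these letters are absent from those 300 bases.

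Further known p53 targets were read from the same fit to see whether the 10 genes were typical. Of 41 such genes in 3 lists, 37 were tested and 0 had an adjusted p under 0.05. At an unadjusted p under 0.05 there were 5 of the 37 (13.5%, beside 11.5% of all genes tested), 2 higher (5.27% of all genes) and 3 lower (6.19% of all genes) in KO embryos. The median log2 fold change was 0.04, and it was positive for 24 and negative for 13. Without KOAC10-8, 3 of these genes had an unadjusted p under 0.05, 1 higher and 2 lower, where the share of all genes was 7.80%.

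In the list for the cell cycle and DNA repair, 1 of 16 tested genes had an unadjusted p under 0.05 (beside 11.5% of all genes), and 0 without KOAC10-8 (beside 7.80%). The 1 gene was Plk3, a stress-responsive polo-like kinase, at 10.73, 9.85 and 15.36 FPKM in KO and 7.86, 8.89, 7.68 and 10.19 FPKM in WT embryos, with KOAC10-5 below the WT embryo KOAC10-2. Its log2 fold change was 0.41 (SE 0.16, adjusted p = 0.406 in limma), and 0.23 (SE 0.12) without KOAC10-8. Gtse1, a G2 and S phase protein that restrains p53 (0.15, SE 0.07), and Psrc1, a spindle protein and the most abundant of the list (0.15, SE 0.08), did not pass, and were at 0.09 and 0.08 without KOAC10-8. Gdf15, a secreted stress factor, reached no more than 0.322 FPKM in any embryo and was not tested.

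In the list for cell death, 0 of 9 tested genes had an unadjusted p under 0.05 (beside 11.5% of all genes). Pmaip1, which encodes the BH3-only protein NOXA, came nearest, at 5.16, 2.98 and 5.74 FPKM in KO and 3.08, 3.48, 2.62 and 3.59 FPKM in WT embryos. KOAC10-5 lay within the WT range and the other KO embryos above it, and the log2 fold change was 0.39 (SE 0.19, adjusted p = 0.480 in limma), or 0.25 (SE 0.19) without KOAC10-8. Pidd1, of the complex that activates caspase 2, had a log2 fold change of 0.11 (SE 0.09), or 0.01 without KOAC10-8, and Siva1, the most abundant of the list, of 0.09 (SE 0.09). Fas, a death receptor too low to be tested, was below WT in every KO embryo, at 0.416, 0.330 and 0.309 against 0.582 to 0.727 FPKM. In the fit without the filter it had a log2 fold change of -0.28 (SE 0.05, unadjusted p = 0.000863 and adjusted p = 0.334 in limma), where 5.35% of all genes were lower at an unadjusted p under 0.05 and 5.43% had every KO embryo below every WT embryo. It was named after its values had been seen.

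The list for metabolism and redox held 4 of the 5 genes, of 12 tested. It had 1 higher (beside 5.27% of all genes) and 3 lower (beside 6.19%). Without KOAC10-8 it held 1 higher (beside 3.31% of all genes) and 2 lower (beside 4.49%), Ak1 no longer being among them. Ddit4, an inhibitor of mTORC1 that is also known to be induced by hypoxia and by ATF4, was at 58.8, 65.4 and 55.6 FPKM in KO and 42.2, 36.0, 35.4 and 40.7 FPKM in WT embryos. All KO embryos lay above all WT embryos, and here KOAC10-8 was the lowest of the KO embryos. The log2 fold change was 0.62 (SE 0.09, adjusted p = 0.165 in limma), the smallest adjusted p among the tested p53 genes and further targets, and it was 0.68 (SE 0.09) without KOAC10-8. Sesn1, sestrin 1, was at 12.3, 14.0 and 10.6 FPKM in KO and 14.8, 15.9, 16.1 and 14.4 FPKM in WT embryos (log2 fold change -0.30, SE 0.09, adjusted p = 0.354 in limma), or -0.20 (SE 0.08) without KOAC10-8. Its KO values were all lower, so that within the sestrin family Sesn1 and Sesn2 had fold changes of opposite sign. Gpx1, which reduces hydrogen peroxide and was the most abundant of the list, averaged 229 ± 18.7 FPKM in the KO group (SD, n = 3) and 295 ± 39.1 FPKM in the WT group (SD, n = 4) (-0.36, SE 0.11, adjusted p = 0.354 in limma). The adenylate kinase gene Ak1 had a log2 fold change of -0.20 (SE 0.08, adjusted p = 0.402 in limma). Both Gpx1 and Ak1 were below WT in every KO embryo (beside 5.98% of all genes tested). For Gpx1 the groups barely parted, at 244.2 FPKM in KOAC8-6 and 244.4 FPKM in the WT embryo KOAC10-7.

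**Figure D4:**
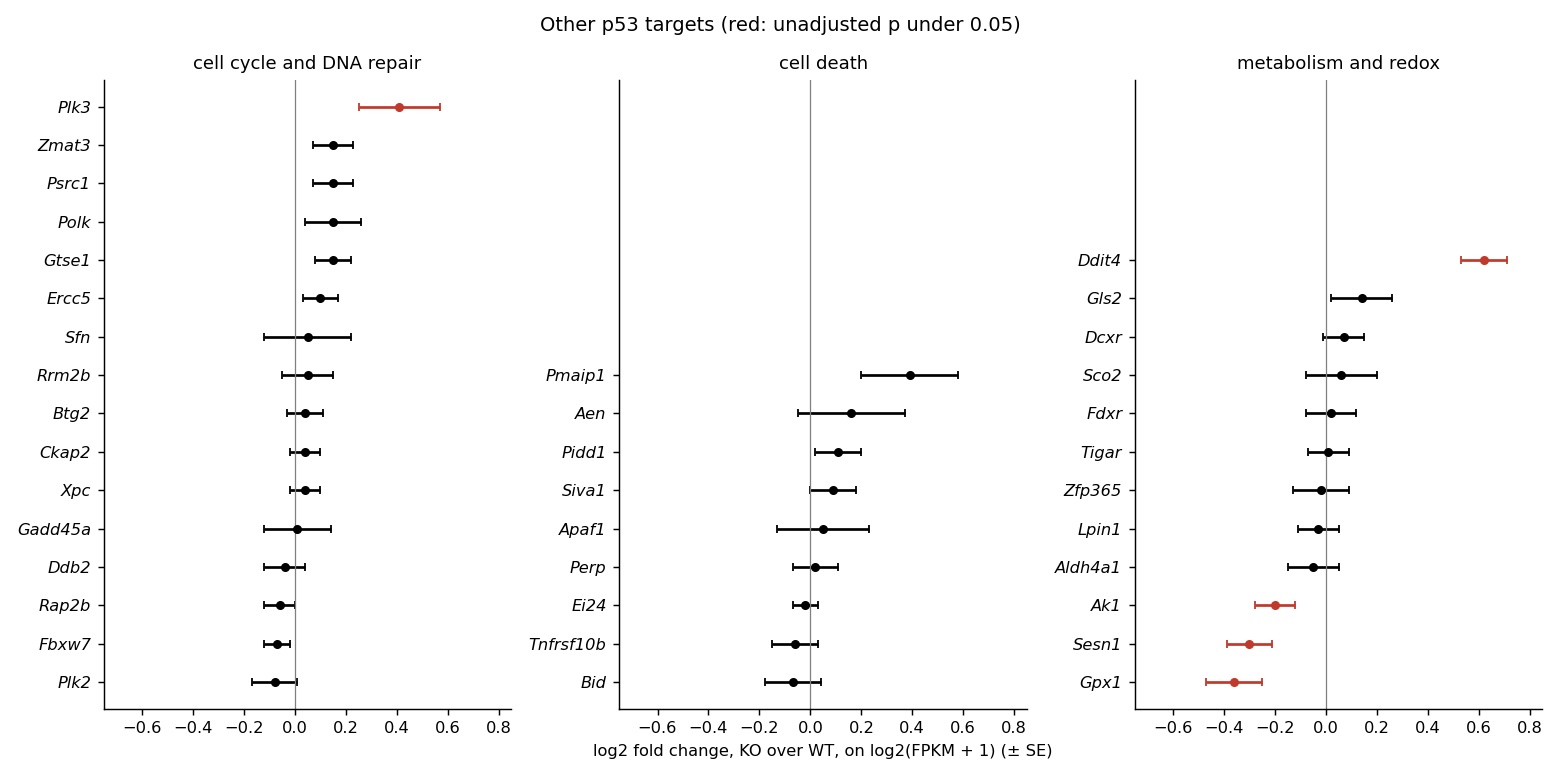
Log2 fold change of KO over WT embryos on the log2(FPKM + 1) scale (horizontal axis, whiskers ± SE) for the 37 tested genes of the 3 lists of further p53 targets, with red marking an unadjusted p under 0.05. Ddit4 is highest at 0.62 and Gpx1 lowest at -0.36.

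Upstream of p53, 15 regulators and 14 genes of the DNA damage response were tested, and 0 of either had an adjusted p under 0.05. The fold change was positive for 13 of the regulators and negative for 2, or 10 and 5 without KOAC10-8. Over all 16095 genes tested it was positive for 8554. Mdm4, the partner of Mdm2 in restraining p53, averaged 52.5 ± 2.31 FPKM in the KO group (SD, n = 3) and 45.5 ± 3.14 FPKM in the WT group (SD, n = 4), and no KO embryo overlapped with WT (log2 fold change 0.20, SE 0.07, adjusted p = 0.354 in limma). Usp7, which removes ubiquitin from both p53 and Mdm2, had a log2 fold change of 0.22 (SE 0.08), and the deacetylase gene Sirt1 of 0.13 (SE 0.06). Mdm4 and Usp7 were the 2 regulators with an unadjusted p under 0.05, both higher in KO (2 of 15, beside 5.27% of all genes tested). Without KOAC10-8, Mdm4 alone did so (beside 3.31% of all genes), Usp7 being at 0.19 with an unadjusted p = 0.0981 in limma, and Sirt1 was at 0.09. The most abundant, the ribosomal protein gene Rpl11, whose protein binds Mdm2, was at 1080 ± 141 FPKM (SD, n = 3) and 1030 ± 59.4 FPKM (SD, n = 4), a log2 fold change of 0.07 (SE 0.10) that turned to -0.04 without KOAC10-8 and to -0.01 under quantile normalization. Other annotated transcripts share 17.7% of the 50-base stretches of Rpl11.

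In the damage list, 13 of 14 fold changes were positive, as were 8554 of the 16095 over all genes tested. An unadjusted p under 0.05 with KO higher was found for 2 of the 14, Mdc1 and Atr, both with all embryos (beside 5.27% of all genes) and without KOAC10-8 (beside 3.31%). Mdc1, a scaffold at DNA breaks, was at 37.7, 36.7 and 40.7 FPKM in KO and 34.0, 31.9, 31.4 and 32.5 FPKM in WT embryos. The groups did not overlap, and the log2 fold change was 0.23 (SE 0.05, adjusted p = 0.285 in limma). Atr, the kinase of stalled replication forks, had a log2 fold change of 0.19 (SE 0.08) and Hus1, of the damage sensor clamp, 0.12 (SE 0.06). H2ax, the histone variant phosphorylated at breaks and the most abundant of the list, had 0.10 (SE 0.08), or 0.02 without KOAC10-8. Antisense or overlapping genes cover 5.78% of the exonic bases of Atr and 10.19% of those of H2ax.

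Downstream, 20 genes of the BCL2 family, the caspases and their partners were tested, with 0 adjusted calls, 2 genes higher and 1 lower at an unadjusted p under 0.05 (3 of 20, beside 11.5% of all genes tested). Without KOAC10-8 there were 1 higher (beside 3.31% of all genes) and 2 lower (beside 4.49%). Casp2, which encodes the caspase activated through Pidd1, was at 44.2, 42.2 and 44.2 FPKM in KO and 39.7, 37.4, 36.8 and 36.7 FPKM in WT embryos (log2 fold change 0.20, SE 0.05, adjusted p = 0.285 in limma). The groups were apart although the difference was small. Bcl2l1, encoding the survival protein BCL-XL, was at 39.3, 43.3 and 38.8 FPKM in KO and 43.7, 46.4, 47.1 and 46.6 FPKM in WT embryos (-0.18, SE 0.06, adjusted p = 0.347 in limma). Bcl2l11, encoding the BH3-only protein BIM, had a log2 fold change of 0.15 (SE 0.06), with every KO embryo above every WT embryo, and 0.13 with an unadjusted p = 0.105 in limma without KOAC10-8. Cytochrome c, Cycs, the most abundant of the list, had a log2 fold change of -0.12 (SE 0.07), or -0.20 (SE 0.06, unadjusted p = 0.0143 in limma) without KOAC10-8, and 26.1% of its 50-base stretches recur in other transcripts.

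Along the cyclin-dependent kinase axis on which p21 acts, 17 genes were tested, with 0 adjusted calls and 1 gene lower at an unadjusted p under 0.05, both with all embryos (beside 6.19% of all genes) and without KOAC10-8 (beside 4.49%). That gene was Cdkn1c, encoding p57, a relative of p21, at 460, 516 and 380 FPKM in KO and 540, 560, 595 and 565 FPKM in WT embryos. All KO embryos were lower, KOAC10-8 most of all (log2 fold change -0.33, SE 0.10, adjusted p = 0.353 in limma, or -0.21, SE 0.07, without it). An antisense gene, Gm44732, covers 30.7% of the exonic bases of Cdkn1c. The pocket protein genes Rbl1 (0.17, SE 0.09) and Rb1 (0.13, SE 0.07) did not pass, nor did Cdk4 (0.03, SE 0.06), the most abundant, which averaged 980 ± 25.2 FPKM in the KO group (SD, n = 3) and 959 ± 45.6 FPKM in the WT group (SD, n = 4).

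Of 14 genes of G2 and mitosis, which p53 is known to repress through p21, 0 had an adjusted p under 0.05 and 2 an unadjusted p under 0.05, both higher in KO (beside 5.27% of all genes). Foxm1, their activator, had a log2 fold change of 0.26 (SE 0.11, adjusted p = 0.420 in limma), the mitotic kinase gene Aurka 0.19 (SE 0.08) and the checkpoint kinase gene Bub1 0.21 (SE 0.09). Top2a, DNA topoisomerase II and the most abundant, was at 272, 239 and 283 FPKM in KO and 238, 239, 197 and 246 FPKM in WT embryos. KOAC10-8 was the highest embryo for 12 of these 14 genes (beside 26.4% of all genes), and without it 0 of them had an unadjusted p under 0.05 (beside 7.80%), with Foxm1 at 0.15 and Aurka at 0.12. The fold change was positive for all 14 (beside 8554 of the 16095 genes tested). Without KOAC10-8 it was positive for 13 and negative for 1.

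Marker genes of several tissues also differed in level between the embryos. The skeletal muscle list was lower in KO for 8 of 9 tested genes at an unadjusted p under 0.05 (beside 6.19% of all genes), with a summed level of 259, 273 and 228 FPKM in KO and 364 to 486 FPKM in WT embryos. Most of each KO sum was Actc1, the most abundant of the list, at 136, 147 and 150 FPKM in KO and 158 to 194 FPKM in WT embryos. Myog, a regulator of muscle differentiation, was at 17.0, 18.3 and 8.24 FPKM in KO and 24.2 to 33.8 FPKM in WT embryos. For Myf5, another muscle regulator, the groups overlapped (log2 fold change -0.16, SE 0.13, unadjusted p = 0.243 in limma). All 4 later globins were lower at an unadjusted p under 0.05 (Hba-a1, the most abundant, with a log2 fold change of -0.86, SE 0.22). Of 7 neural progenitor genes, 6 were higher at an unadjusted p under 0.05 (beside 5.27% of all genes), summing to 661, 728 and 740 FPKM in KO and 598 to 683 FPKM in WT embryos, with Fabp7 the most abundant. KOAC10-8 was the highest embryo for 6 of the 7 (beside 26.4% of all genes), and without it 3 of the 7 were higher at an unadjusted p under 0.05 (beside 3.31% of all genes). The muscle and later globin counts were 8 and 4 without it too, beside 4.49% of all genes. None of these genes had an adjusted p under 0.05 in limma. The part of these tissues in the values of the p53 genes was not tested. With Afp as a covariate, 0 of the 9 p53 genes had an adjusted p under 0.05 in limma (beside 10 of all genes). That count was 0 without the covariate too, so it cannot show a part of the liver.

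Liver genes summed to 25.8 FPKM in KOAC10-5, 37.4 in KOAC10-7 and 43.2 in KOAC10-2. Most of these sums was Ttr, at 15.3, 32.3 and 35.3 FPKM, so the other liver genes were lower still. In the remaining embryos the liver genes summed to 436 to 817 FPKM, and Afp was the most abundant. Of 10 liver genes, 1 had an unadjusted p under 0.05 with all embryos (beside 11.5% of all genes) and 1 without KOAC10-8 (beside 7.80%). In both cases this was Ttr, transthyretin, at 14.4, 15.3 and 15.2 FPKM in KO and 46.4, 32.3, 53.1 and 35.3 FPKM in WT embryos (log2 fold change -1.40, SE 0.17, adjusted p = 0.0891 in limma). The groups did not overlap, and among the WT embryos the liver-poor KOAC10-7 and KOAC10-2 had the lower values. Among the KO embryos, however, the liver-poor KOAC10-5 had the highest value. Over all embryos Ttr did not follow Afp. It was lower in KOAC8-6 and KOAC10-8, with Afp at 255 and 308 FPKM, than in KOAC10-7 and KOAC10-2, with Afp at 1.30 and 2.49 FPKM. The tissue in which Ttr differed was not tested. Among the remaining lists, 7 neuron genes summed to 552 to 704 FPKM over the 7 embryos with 0 at an unadjusted p under 0.05 (beside 11.5% of all genes; most abundant Tubb3). The 7 macrophage genes summed to 34.7 to 47.9 FPKM with 0 (most abundant C1qb), and 7 heart genes to 499 to 704 FPKM with 3 higher in KO at an unadjusted p under 0.05 (beside 5.27% of all genes; most abundant Myl2), or 0 without KOAC10-8 (beside 3.31%). The 3 primitive globins differed in direction. Hbb-y, the most abundant, had a log2 fold change of -0.57 (SE 0.15, unadjusted p = 0.0061 in limma, or SE 0.28 and unadjusted p = 0.0855 without the filter), Hbb-bh1 of 0.51 (SE 0.31) and Hba-x of -0.12 (SE 0.24). The 3 trophoblast genes in the table summed to 0.185 to 0.964 FPKM, so that placental RNA was close to absent in every embryo.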

How the data were processed

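TruSeq RNA v2 libraries, which do not mark strand, were sequenced, and the authors deposited 1 FPKM value per gene and embryo. The labels name Salmon, DESeq2, MultiQC and the build GRCm38, without versions. The authors' mean signal of each gene (a normalized count) was used only for depth, on the assumption that FPKM are proportional to normalized counts. The authors' own fold changes, standard errors and p-values for KO against WT stand in the same table and were not used. All FPKM columns were mapped to embryos (0 left over).

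Genes averaging 1 FPKM or more were compared on log2(FPKM + 1) with limma 3.58.1 in R 4.3.3 (lmFit, eBayes with trend) without covariates, with Benjamini-Hochberg adjustment over all 16095 genes and a threshold of 0.05. This scale understates changes of low genes. Single values were compared by exact permutation over the 35 assignments of 3 of 7 embryos. The fit was tried on simulated data, and no result given here rests on that trial. The p53 genes and all lists were chosen with earlier results of these data known. Named are Slmap, the 10 genes, and from each pathway list the 3 tested genes with the smallest p and the most abundant. Asns, Trib3, Atf4, Ak1, Gdf15, Fas, Slc7a11, Nupr1, Ttr, Hbb-bh1, Hba-x, Afp, Xist, Myog and Myf5 were named after their values were seen, and from marker lists the most abundant gene is given. Nothing states that embryos came from separate litters. Alternatives were other pseudocounts, filters and scalings, the label prefix as a block, Afp or Xist as covariates, embryo weights, leaving out each embryo, and the KOAC10 embryos alone. Positions, overlaps and shared 50-base stretches came from GENCODE M21 and promoters from RefSeq (GRCm38.p6).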

Additional observations from a re-analysis of the deposited data

Results flagged for a closer look

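Among the 4 WT embryos, the distance of the most extreme embryo to its nearest neighbour, as a share of the range, passed Dixon's 95% critical value for 4 of the 44 genes examined, where chance passes about 1 in 20. None of the 10 p53 genes was among them. Rb1 was lowest in KOAC10-2 (0.837 of the range, 17.3 FPKM against up to 19.9 FPKM). Top2a was lowest in KOAC9-1 (0.846, 197 against up to 246 FPKM), as was Phgdh (0.862, 96.5 against up to 105 FPKM). Vldlr was highest in KOAC10-2 (0.864, 7.77 FPKM against 6.19 FPKM in the lowest).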

How the results depend on the processing

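No p53 gene had an adjusted p under 0.05 in any of the alternatives run (0.203 to 0.928), and neither did any gene of the lists of further targets, regulators and effectors. At an unadjusted p under 0.05, the 92 tested regulators, effectors and ATF4 genes gave 10 (10.9%, beside 11.5% of all genes), but 21 without KOAC10-5 (22.8%, beside 16.4%), 5 without KOAC9-1 (5.43%, beside 7.85%), 6 without KOAC10-2 (6.52%, beside 9.96%), 4 with the label prefix as a block (4.35%, beside 8.69%) and 3 in the KOAC10 embryos alone (3.26%, beside 4.90%). The 37 further targets gave 5, but 3 with that block (8.11%, beside 8.69%), 3 without KOAC10-8 (8.11%, beside 7.80%) and 2 in the KOAC10 embryos alone (5.41%, beside 4.90%). The count over all genes was 6, and became 11 without the filter at a pseudocount of 0.1 (chosen after seeing the data), 10 with Afp as a covariate, 13 in the KOAC10 embryos alone, and 7 to 12 with each embryo left out, 12 being without KOAC8-1. The median log2 fold change of the p53 genes, 0.10 in all embryos, ran from -0.03 without KOAC10-8 to 0.14 with an embryo left out, and was 0.18 in the KOAC10 embryos alone and 0.04 with embryo quality weights. The number of p53 genes whose groups did not overlap, 0 of 9 (beside 11.6% of all genes), became 1 without the filter (Eda2r, beside 10.1%), 1 under quantile normalization (Phlda3, beside 11.8%) and 3 in the KOAC10 embryos alone (Bbc3, Ccng1 and Mdm2, beside 37.1%). With an embryo left out it ran from 0 to 3, the 3 being without KOAC10-5 (Mdm2, Phlda3 and Sesn2, beside 28.4%), where the shares of all genes ran from 14.4% to 28.4%. With an embryo left out, Trp53 ran from -0.04 to 0.17, Bax from -0.03 to 0.12 and Rpl11 from -0.04 to 0.13, each negative only without KOAC10-8. Fold changes also reversed under quantile normalization for Rpl11 (-0.01), and in the KOAC10 embryos alone for Siva1 (-0.02) and Cdk4 (-0.01). The cause was not tested. With only 3 and 4 embryos, small differences could not be resolved.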
